A study of Mus musculus with 15 samples.

Results

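The genes of the proteasome were followed in cultured mouse dental mesenchymal cells (mDMCs). Members were the transcripts of the deposited table whose mouse gene symbol starts with Psm, followed by a letter from a to g and a number. Of 12089 transcripts in the table, 11973 matched a gene and 45 had such a symbol. Of these, 44 are genes of the proteasome and are described by role: 14 constitutive subunits of the 20S core, 1 immune core subunit, 17 subunits of the 19S cap, 4 activators, 1 inhibitor and 7 assembly factors. The remaining symbol, Psmc3ip, belongs to a cofactor of meiotic recombination and is given apart. All 45 passed the filter on low values, and none was listed at 0 in any library. The subunit genes Psma8, Psmb8, Psmb9 and Psmb11 and the activator copy Psme2b were not analysed here.

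All libraries came from ICR mouse embryos at embryonic day 14.5, with no genetic change named in the labels. The dental mesenchyme of mandibular first molar germs was freed from epithelium with dispase and made into single cells with trypsin. Freshly isolated mDMCs gave the 0 h group (3 libraries), and mDMCs kept in medium with FBS gave the groups at 12 h (2 libraries), 24 h (3), 36 h (3) and 48 h (3). Dental mesenchymal tissue that had not been cultured gave 1 library. The labels do not say whether replicates came from separate litters or cultures, so p-values measure only the spread between these libraries, which may be technical. The values are whole numbers that the authors had brought to 1 distribution: the median is 721 and the maximum 127101 in every library, and library totals run from 21357605 to 21365980. They are no read counts, the depth of each library is unknown, and whether a cell held more or less RNA in all cannot be seen from them. In such bulk samples, fewer cells of a type and less RNA per cell cannot be told apart.

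The proteasome degrades proteins that carry chains of ubiquitin. Its barrel, the 20S core, consists of outer rings of alpha subunits, which control entry, and inner rings of beta subunits, of which Psmb5, Psmb6 and Psmb7 carry the catalytic sites. The 19S cap sits on the barrel to form the 26S proteasome: a ring of ATPases (Psmc1 to Psmc6) unfolds the substrate, other base subunits bind ubiquitin, and the lid removes the ubiquitin chain. After interferon, immune catalytic subunits such as Psmb10 can take the place of constitutive ones in newly built cores, and the activator of Psme1 and Psme2 can take the place of the cap. Assembly chaperones bring the rings together.

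Several libraries stood apart for these genes. Compared with the other replicates of its time point, 27 of the 31 subunits of the core and cap were lowest in 0 h replicate 3, 30 in 12 h replicate 1 and 29 in 48 h replicate 1, while 44.0%, 58.4% and 38.3% of all transcripts tested were lowest in the same libraries. The 2 libraries at 12 h thus differed in nearly every subunit. Other libraries were one-sided too: 24 h replicate 1 was lowest in 22 of the 31 (against 40.3% of all transcripts tested). Of the 31, 25 were highest in 0 h replicate 1, 23 in 24 h replicate 3 and 25 in 48 h replicate 3. The shares of all transcripts highest there were 36.6%, 39.8% and 27.6%. The first 2 libraries at 36 h held identical values in 4.86% of transcripts and in 9 of 44 members, against 1.45% to 2.64% of transcripts and at most 2 members in the other pairs of replicates, and the labels do not say whether they were separate cultures. Markers of dental epithelium summed to 14067 in 0 h replicate 1, against 1514 and 1883 in the others at 0 h, 91 to 2732 in culture and 5059 in the tissue. All 10 endothelial markers fell at every time point, with sums of 10674 to 12944 at 0 h, 605 to 1001 in culture and 15485 in the tissue. Of the defining endothelial markers, Cldn5 was at 0 to 3 and Plvap at 1 to 5 in culture, while Kdr was at 254 to 733. All 8 red cell markers also fell, from sums of 98075 to 151040 to sums of 52 to 757. Of the 5 leukocyte and macrophage markers with values, 4 were lower at 48 h, and their sums ran from 908 to 1270 at 0 h and from 452 to 1212 in culture. The 9 markers of dental mesenchyme had values in every library, and 6 of them, among them Msx1, Pax9 and Pdgfra, were lower at 48 h while Vim was higher. The part of these shifts in cell makeup in the proteasome results was not tested.

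Most proteasome genes that changed were higher in culture than at 0 h. A gene was called when the limma adjusted p over the 12079 transcripts tested was below 0.05, at any fold. At 12 h, 21 of 44 members were called higher (47.7%, against 29.9% of all transcripts) and 2 lower (4.55%, against 28.3%). At 24 h, 26 were higher (59.1%, against 35%) and 3 lower (6.82%, against 31.8%). At 36 h, 13 were higher (29.5%, against 36%) and 8 lower (18.2%, against 34%). At 48 h, 21 were higher (47.7%, against 37.1%) and 3 lower (6.82%, against 34%). The share called higher thus lay above that of all transcripts at 12, 24 and 48 h and below it at 36 h. Changes were small: the median log2 change of the members was 0.24, 0.29, 0.10 and 0.24 at the 4 times, against 0.02 to 0.03 for all transcripts, and 5 members passed 2-fold at 48 h, 4 upward and 1 downward. The counts at 12 h rested on 1 library. Without 12 h replicate 2, which leaves a lone library whose spread is assumed to be that of the other groups, 8 members were higher and 5 lower, and without 12 h replicate 1 only 1 was lower. At 36 h, 8 were higher without replicate 1 and 8 without replicate 2, the pair with many identical values, and 5 were lower without 0 h replicate 1 or without 0 h replicate 2. At 48 h, 5 were lower without 0 h replicate 3.

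**Figure D1:**
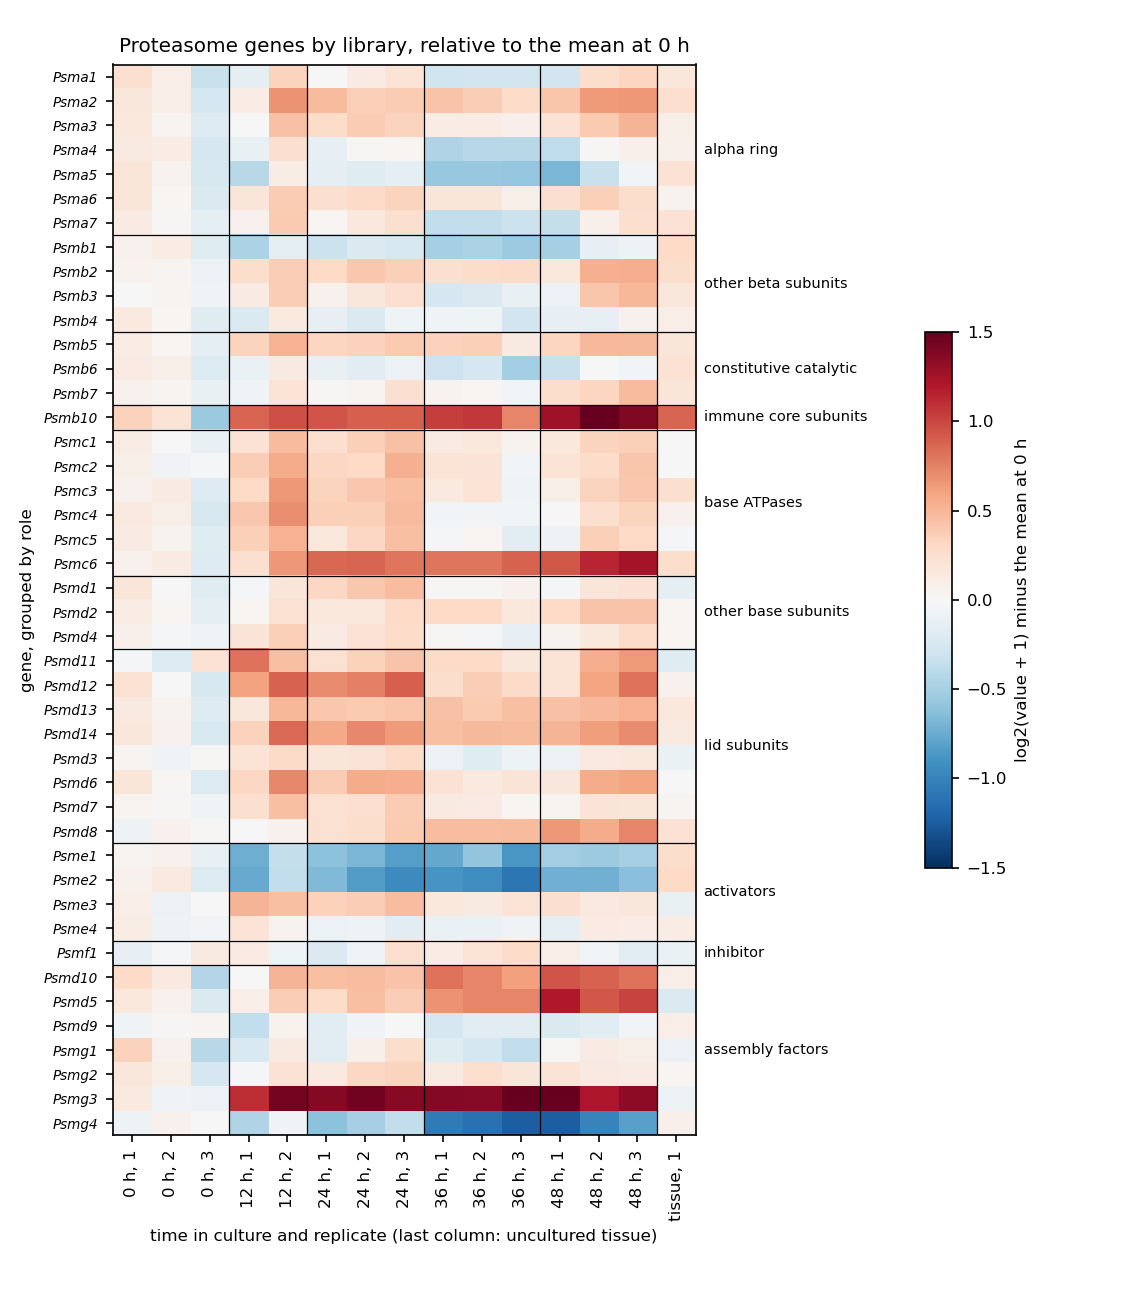
Heat map of the 44 proteasome genes (rows, grouped by role) in the 15 libraries (columns, by time in culture and replicate, tissue last). Colour gives log2(value + 1) minus the mean of the 3 libraries at 0 h, with the scale limited to 1.5 in both directions. Psmb10, Psmc6, Psmd5, Psmd10 and Psmg3 were high in the later cultures, Psme1, Psme2 and Psmg4 were low, and 0 h replicate 3 was below the 0 h mean for 38 of the 44 genes.

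Most genes of the 19S cap were higher in the first day of culture, and fewer were at the later times. Of its 17 genes, 14 were called higher after 12 h, 16 after 24 h, 5 after 36 h and 10 after 48 h, and none was called lower at these times, against 28.3% to 34% of all transcripts. The counts are 82.4%, 94.1%, 29.4% and 58.8% of the cap, against 29.9%, 35%, 36% and 37.1% of all transcripts, so that the share of the cap was below that of all transcripts at 36 h. The median log2 change of the cap was 0.44, 0.38, 0.12 and 0.30. At 24 h all 17 genes were above 0 h with no overlap between the libraries, as were 35.8% of all transcripts, although Psmd2 missed the threshold (log2 change 0.20 ± 0.10 SE, limma adjusted p = 0.077). Without 12 h replicate 2 only 4 of the 17 were called at 12 h. Leaving out the 3 low libraries together (0 h replicate 3, 12 h replicate 1 and 48 h replicate 1) gave 14, 5 and 12 cap genes called higher at 24, 36 and 48 h. This alternative was chosen after seeing the data, by the low values of the core and cap genes themselves. Such a recount of core or cap genes is therefore no independent check.

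All 6 ATPases of the cap base, which unfold substrates and feed them into the core, were higher at 12 h and at 24 h. At 36 h only Psmc6 was called, and at 48 h Psmc1, Psmc2 and Psmc6 were. The shares called were 100%, 100%, 16.7% and 50%, against 29.9%, 35%, 36% and 37.1% of all transcripts, so the ATPases lay below that share at 36 h. Psmc6 (transcript at chr14:45329788-45349705 of GRCm38, plus strand) read 3059, 3175 and 2558 at 0 h and 3460 and 4584 at 12 h. It read 5286, 5346 and 5082 after 24 h, 5082, 5082 and 5388 after 36 h, and 5550, 6427 and 6948 after 48 h. Every cultured library was above every library at 0 h, and the log2 change was 0.45 after 12 h, 0.84 after 24 h, 0.83 after 36 h and 1.11 ± 0.12 after 48 h (limma adjusted p = 2.3e-06), the largest among the 31 subunits after 48 h. Psmc2, another ATPase, read 2036, 1843 and 1872 at 0 h, 2478 and 2826 after 12 h, 2385, 2365 and 2763 after 24 h, 2209, 2194 and 1856 after 36 h, and 2209, 2322 and 2556 after 48 h. Its log2 change was 0.47 after 12 h, 0.12 after 36 h (adjusted p = 0.29) and 0.30 ± 0.10 after 48 h (limma adjusted p = 0.014), and the libraries after 36 h overlapped those at 0 h. Leaving out 1 library at a time lost the call of Psmc2 at 48 h in 1 of 6 fits (limma adjusted p up to 0.063). Psmc3, Psmc4 and Psmc5 had log2 changes of 0.44 to 0.55 after 12 h, and each missed the threshold after 36 h and after 48 h.

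Of the other base subunits, Psmd2 is a scaffold that holds ubiquitin-binding proteins. It read 13330, 12563 and 11136 at 0 h, 12563 and 14465 after 12 h, 13709, 13709 and 15178 after 24 h, 15178, 15178 and 13709 after 36 h, and 15178, 16600 and 16600 after 48 h. It was called after 36 h (log2 change 0.25 ± 0.10) and after 48 h (0.39 ± 0.10, limma adjusted p = 0.0028), when its libraries lay above all those at 0 h. Psmd4, a ubiquitin receptor, read 3833, 3582 and 3472 at 0 h, 4140 and 4651 after 12 h, 3961, 4222 and 4377 after 24 h, 3666, 3550 and 3339 after 36 h, and 3753, 4040 and 4377 after 48 h. It was higher at 12 h (log2 change 0.28) and 24 h (0.21), but overlapped the 0 h libraries at 36 h and 48 h. Psmd1, the other large scaffold, was called only at 24 h (log2 change 0.39 ± 0.10). Its identifier in the table is a transcript annotated as a retained intron, as are those of Psmd11 and Psmb6.

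Of the 8 lid genes, 7 were higher after 12 h, all 8 after 24 h, 3 after 36 h and 6 after 48 h. These are 87.5%, 100%, 37.5% and 75%, against 29.9%, 35%, 36% and 37.1% of all transcripts, and at 36 h the shares are close. Psmd14, the enzyme that cuts ubiquitin chains from substrates, read 2586, 2388 and 1950 at 0 h, 2913 and 4116 after 12 h, 3413, 3782 and 3560 after 24 h, 3139, 3208 and 3175 after 36 h, and 3272, 3537 and 3758 after 48 h. No cultured library overlapped those at 0 h, and the log2 change was 0.59, 0.64, 0.47 and 0.62 ± 0.13 in order of time (limma adjusted p = 0.00067 at 48 h). Psmd8 had another course, with 3045, 3345 and 3250 at 0 h and 3226 and 3346 at 12 h. Its values then were 3758, 3841 and 4229 after 24 h, 4410, 4436 and 4476 after 36 h, and 5044, 4713 and 5346 after 48 h. Its log2 change was 0.03 after 12 h (adjusted p = 0.75), 0.29 after 24 h, 0.47 after 36 h and 0.65 ± 0.07 after 48 h (limma adjusted p = 3.9e-06), and each group from 24 h on lay above the one before without overlap. Psmd12, a lid scaffold chosen after its values were seen, had the largest log2 change of the cap at 12 h. It read 2239, 1917 and 1608 at 0 h, 2895 and 3530 after 12 h, 3118, 3217 and 3545 after 24 h, 2293, 2458 and 2324 after 36 h, and 2202, 2868 and 3337 after 48 h. It was called higher at 12 h (0.75 ± 0.17), 24 h (0.79 ± 0.15) and 48 h (0.54 ± 0.15) but not at 36 h (0.31, limma adjusted p = 0.08). The 3 lid genes called at 36 h were Psmd8, Psmd13 and Psmd14.

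**Figure D2:**
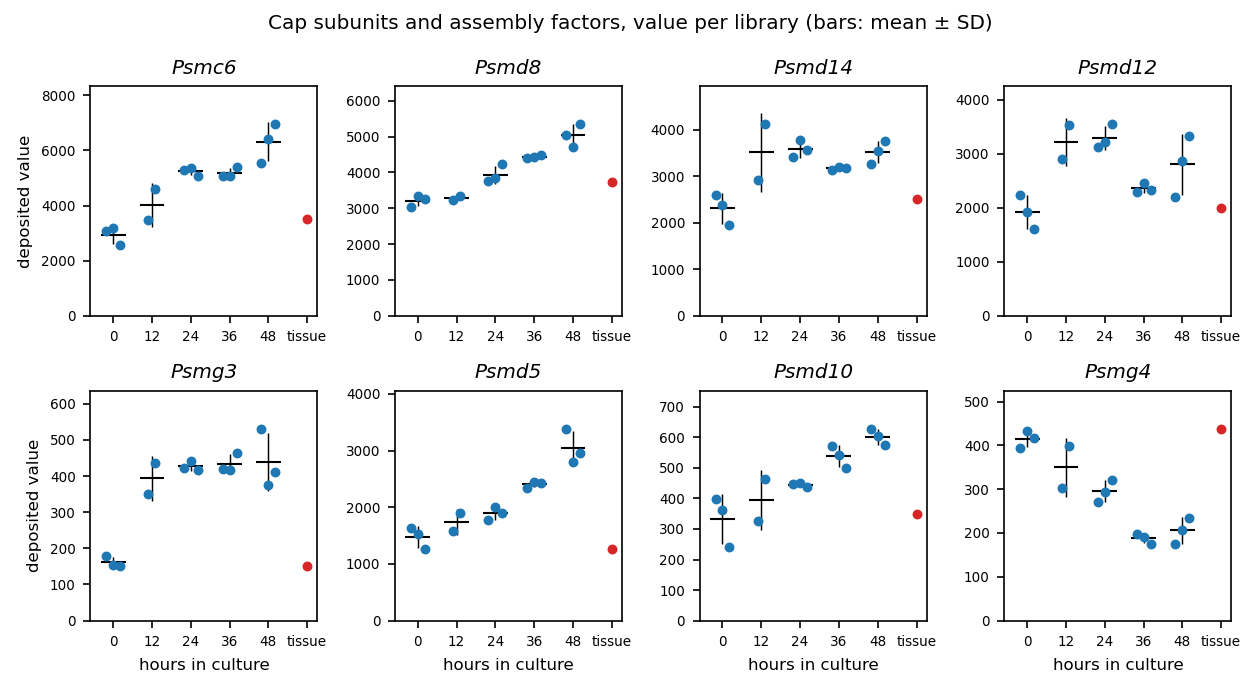
Deposited value (vertical axis, from 0) of 4 cap genes (upper row) and 4 assembly factors (lower row) in each library against hours in culture. Blue points are mDMC libraries with their mean and SD, and the red point is the tissue library. Psmc6, Psmd8, Psmd5 and Psmd10 were highest after 48 h, Psmd14 and Psmg3 were high from 12 h on, Psmd12 was lower after 36 h than after 24 h, and Psmg4 was lowest after 36 h and 48 h.

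For the constitutive 20S core, the share of genes called higher was close to that of all transcripts at 12, 24 and 48 h and lower at 36 h. Of its 14 genes, 4 were called higher after 12 h, 5 after 24 h, 3 after 36 h and 6 after 48 h, and 5 were called lower after 36 h but none at the other times. The shares called higher were 28.6%, 35.7%, 21.4% and 42.9%, against 29.9%, 35%, 36% and 37.1% of all transcripts, and the 35.7% called lower at 36 h compares with 34%. The 0 of 14 called lower at 12, 24 and 48 h compares with 28.3%, 31.8% and 34% of all transcripts. The median log2 change was 0.16, 0.13, -0.17 and 0.19. These counts were sensitive to single libraries. At 12 h, 2 were higher without 0 h replicate 2, 1 without 0 h replicate 3 and 1 without 12 h replicate 2. At 24 h, 2 were higher without 0 h replicate 3 and 3 without 24 h replicate 3. At 36 h, none was higher without 0 h replicate 3, 36 h replicate 1 or 36 h replicate 2, and 2 or 3 instead of 5 were lower without 0 h replicate 1, 0 h replicate 2 or 36 h replicate 3. Without the 3 low libraries, 7, 5, 3 and 7 core genes were higher at the 4 times and 1, 4, 7 and 2 were lower.

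In the alpha ring, Psma2 read 3537, 3367 and 2620 at 0 h, 3389 and 5003 after 12 h, 4384, 4029 and 4116 after 24 h, 4229, 4066 and 3811 after 36 h, and 4193, 4902 and 4933 after 48 h. From 24 h on all its libraries were above those at 0 h, and its log2 change at 48 h was 0.57 ± 0.14 (limma adjusted p = 0.0029). Psma3, with 4470, 4113 and 3517 at 0 h, 4042 and 5430 after 12 h, 4865, 5218 and 5079 after 24 h, 4347, 4347 and 4225 after 36 h, and 4655, 5281 and 5717 after 48 h, was called after 24 h (0.33) and after 48 h (0.37 ± 0.12, limma adjusted p = 0.012) but overlapped 0 h after 12 h and 36 h. Leaving out 1 library at a time lost the call of Psma3 at 48 h in 2 of 6 fits (limma adjusted p up to 0.054). Psma6 rose at 12, 24 and 48 h by 0.28 to 0.29. Psma4, Psma5 and Psma7 were called lower at 36 h and at no other time. Psma5, chosen after its values were seen, had the largest of these changes (-0.57 ± 0.16): it read 4252, 3889 and 3154 at 0 h and 2525, 2525 and 2504 at 36 h.

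Of the beta subunits without a catalytic site, Psmb2 read 1037, 1031 and 941 at 0 h, 1201 and 1296 after 12 h, 1232, 1328 and 1288 after 24 h, 1187, 1210 and 1225 after 36 h, and 1117, 1454 and 1464 after 48 h. All cultured libraries were above all those at 0 h, and it was called higher at every time (log2 change 0.27 to 0.41, limma adjusted p = 0.0022 at 48 h). Psmb3 read 2728, 2780 and 2615 at 0 h, 2940 and 3489 after 12 h, 2823, 3039 and 3218 after 24 h, 2280, 2320 and 2502 after 36 h, and 2553, 3611 and 3833 after 48 h. It was below 0 h in all 3 libraries after 36 h and above it in 2 of 3 after 48 h, and passed the threshold at no time (log2 change 0.28 ± 0.13 after 48 h, limma adjusted p = 0.07). It was called at 48 h in the blocked fit (limma adjusted p = 0.0382 with blocks by replicate number), without 48 h replicate 1 (log2 change 0.46) and without the 3 low libraries (0.43). Leaving out 1 library at a time, the log2 change of Psmb3 at 48 h ran from 0.17 to 0.46 (limma adjusted p up to 0.285). Psmb1 was called lower at 36 h (-0.51 ± 0.12), and Psmb4 at no time.

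**Figure D3:**
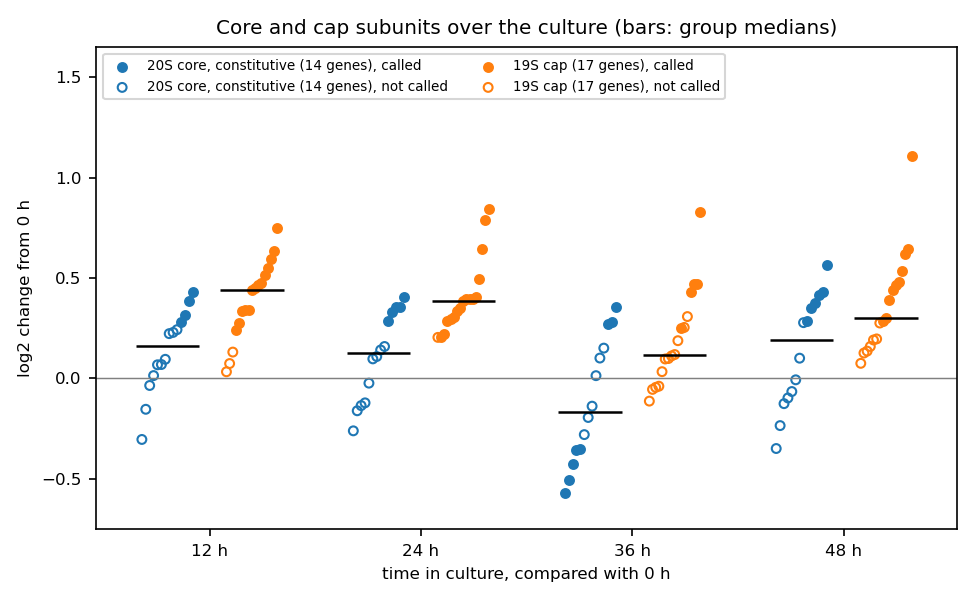
Log2 change from 0 h (vertical axis) of each constitutive core gene (blue) and cap gene (orange) at 12, 24, 36 and 48 h. Filled points passed the limma adjusted p of 0.05, open points did not, and black bars are the medians, which run at 0.44, 0.38, 0.12 and 0.30 for the cap and 0.16, 0.13, -0.17 and 0.19 for the core.

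Within each library, the median of the cap genes relative to 0 h exceeded that of the core genes in all 11 cultured libraries, by 0.06 to 0.36 on the log2 scale. At 0 h the difference was -0.02 to 0.00, around which the measure is centred, and in the tissue it was -0.15. The gap was smallest in 48 h replicates 2 and 3 (0.06 and 0.12) and largest in 36 h replicates 1 and 2 (0.36 and 0.34). The 3 low libraries were low in both groups: in 0 h replicate 3 the cap and core medians were -0.18 and -0.19, and in 48 h replicate 1 they were 0.17 and -0.11, against 0.35 to 0.42 and 0.29 in the other replicates at 48 h. No test of the difference between cap and core was made.

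**Figure D4:**
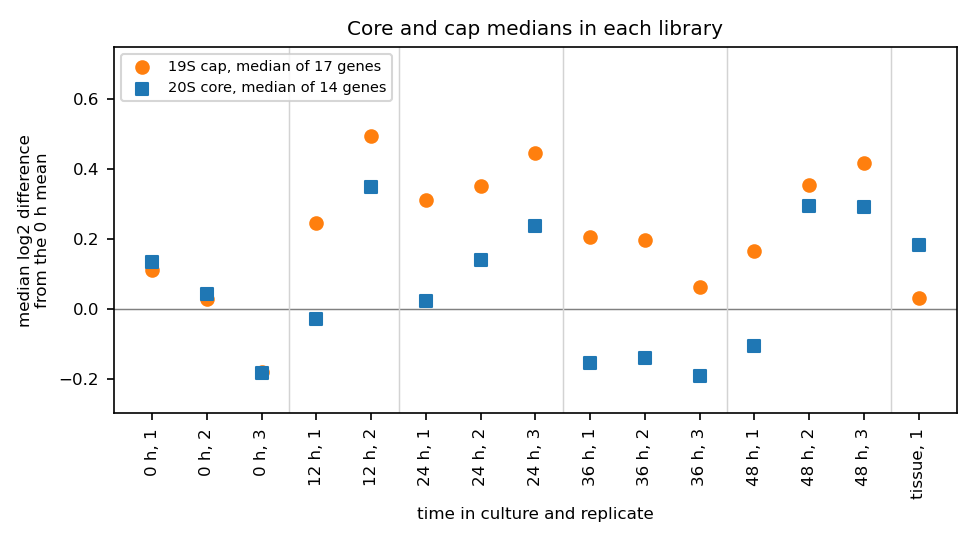
Median log2 difference from the 0 h mean (vertical axis) of the 17 cap genes (orange circles) and the 14 constitutive core genes (blue squares) in each library (horizontal axis). Circles lie above squares in every cultured library, and both are lower in 12 h replicate 1 and 48 h replicate 1 than in the other replicates of those times.

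Promoters from RefSeq (GRCm38.p6), running from 250 bases before to 50 bases after the gene start, were matched for 37 of the 44 members, and for 33 of them that start lies within 100 bases of the start of the table's transcript. They are shown for the cap genes Psmc6 and Psmd12 and the catalytic subunit Psmb5, which were higher in culture and hold the core of the antioxidant response element, and, as a contrast, for the assembly factor Psmg3, which had the largest rise of all members at 12, 24 and 36 h and holds none of the motifs searched. Capitals mark TGACNNNGC, read on either strand, so that its reverse complement stands in Psmc6 and Psmd12. The windows are chr14:45329574-45329873 (plus strand) for Psmc6, chr11:107479278-107479577 (plus) for Psmd12, chr14:54617946-54618245 (minus) for Psmb5 and chr5:139826845-139827144 (minus) for Psmg3.
Psmc6: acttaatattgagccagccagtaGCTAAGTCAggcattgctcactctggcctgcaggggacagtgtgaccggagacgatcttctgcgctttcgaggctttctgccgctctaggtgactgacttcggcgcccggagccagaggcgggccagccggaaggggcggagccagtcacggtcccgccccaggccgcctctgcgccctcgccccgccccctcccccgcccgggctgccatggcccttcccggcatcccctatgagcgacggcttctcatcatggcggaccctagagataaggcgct
Psmd12: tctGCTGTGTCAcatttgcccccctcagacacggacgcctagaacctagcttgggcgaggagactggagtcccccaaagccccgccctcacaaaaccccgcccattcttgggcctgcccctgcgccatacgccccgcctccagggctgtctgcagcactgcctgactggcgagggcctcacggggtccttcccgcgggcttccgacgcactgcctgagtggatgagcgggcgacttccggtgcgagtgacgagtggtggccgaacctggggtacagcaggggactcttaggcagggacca
Psmb5: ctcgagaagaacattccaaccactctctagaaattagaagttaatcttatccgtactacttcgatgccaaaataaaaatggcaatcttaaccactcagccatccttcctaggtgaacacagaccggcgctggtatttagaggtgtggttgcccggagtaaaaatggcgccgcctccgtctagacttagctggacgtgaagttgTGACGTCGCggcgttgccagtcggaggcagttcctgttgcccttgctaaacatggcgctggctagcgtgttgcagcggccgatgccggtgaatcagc
Psmg3: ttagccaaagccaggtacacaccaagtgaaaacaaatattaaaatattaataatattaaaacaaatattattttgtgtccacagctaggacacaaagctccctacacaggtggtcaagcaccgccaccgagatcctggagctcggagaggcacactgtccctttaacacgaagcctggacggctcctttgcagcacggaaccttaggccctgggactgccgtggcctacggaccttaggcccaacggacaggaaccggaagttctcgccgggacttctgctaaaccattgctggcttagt

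This letter pattern, to which the factors Nfe2l1 and Nfe2l2 are known to bind with their partners, was in 6 of 37 members' promoters (16.2%), against 12.4% of 32851 promoters in all and 14.4% of the 9288 whose genes have values. Besides the 3 shown, the carriers were Psmb6, which was called lower at 36 h, and Psmd9 and Psme4, which were called at no time, so the carriers did not share a direction. CCAAT, the box bound by NF-Y, was in 12 (32.4%), against 37.4% and 39.2%. GAAANNGAA, the core of the interferon-stimulated response element, was in 6 (16.2%; Psmb3, Psmb4, Psmd4, Psmd9, Psme1 and Psmg4), against 8.56% and 6.51%. For Psme1 the RefSeq start lies 371 bases from the start of the table's transcript. Psmb10 and Psme2 held no match of GAAANNGAA. Both strands were searched, and no motif includes another. Of the cap genes with a promoter, 2 of 14 held the first pattern (14.3%), as did 2 of 11 core genes (18.2%). A match is a run of letters and not a shown binding site.

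The immune core subunit Psmb10 (chr8:105935739-105938444, minus strand) was higher in every cultured library than in any library at 0 h. It read 96, 87 and 51 at 0 h, 139 and 148 after 12 h, 146, 141 and 141 after 24 h, 155, 158 and 126 after 36 h, 183, 231 and 199 after 48 h, and 139 in the tissue. The log2 change was 0.92 ± 0.23 after 12 h (limma adjusted p = 0.0043), 0.91 after 24 h, 0.94 after 36 h and 1.42 ± 0.21 after 48 h (adjusted p = 4.4e-05), a 2.68-fold rise. The fit of 12 h and 0 h alone did not call it at 12 h (adjusted p = 0.0538). The tissue, also uncultured, lay at the level of the first cultures and not of the freshly isolated cells.

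Psmb10 replaces Psmb7 in the immune form of the core, so their ratio was taken within each library. A scale factor of the library cancels in this ratio. The authors' step to a common distribution is not known to be such a factor, so its effect may not cancel. There were 2.13, 1.97 and 1.28 units of Psmb10 per 100 of Psmb7 at 0 h, 2.78 to 4.30 in the 11 cultured libraries and 2.84 in the tissue. These units are not per transcript length. The groups did not overlap, and the mean log2 ratio was -5.81 ± 0.39 (SD, n = 3) at 0 h and -4.89 ± 0.17 (n = 11) in culture, a difference of 0.92 (two-sided exact permutation p = 0.0055, the lowest that 3 against 11 libraries can give). The test takes the 11 cultured libraries as independent, although they come from 4 times and libraries with the same replicate number deviated together over all transcripts between 24 h and 36 h (r 0.126 to 0.165) and between 24 h and 48 h (0.201 to 0.315), so this p may be too small. The difference was 0.70 without 0 h replicate 3. Of the 3 ratios planned, only this one could be formed, so no adjustment was needed. For 48 h against 0 h alone the difference was 1.07 (exact permutation p = 0.1, also the smallest possible).

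The constitutive catalytic subunits were called at different times. Psmb5, the chymotrypsin-like site, read 2334, 2212 and 1975 at 0 h, 2743 and 3123 after 12 h, 2709, 2755 and 2851 after 24 h, 2754, 2784 and 2388 after 36 h, and 2709, 3030 and 3030 after 48 h. All cultured libraries were above those at 0 h, and it was called at every time (log2 change 0.43, 0.35, 0.28 and 0.43 ± 0.09, limma adjusted p = 0.00083 at 48 h). Psmb6, the caspase-like site, read 5082, 4969 and 4044 at 0 h, 4351 and 5121 after 12 h, 4314, 4193 and 4384 after 24 h, 3782, 3913 and 3290 after 36 h, and 3721, 4660 and 4535 after 48 h. It was called only at 36 h, where it was lower in all 3 libraries (-0.36 ± 0.11, limma adjusted p = 0.014). Psmb7, the trypsin-like site, read 4498, 4420 and 3982 at 0 h, 4100 and 4950 after 12 h, 4329, 4420 and 5066 after 24 h, 4449, 4396 and 4166 after 36 h, and 5144, 5373 and 5959 after 48 h. It was called only at 48 h, above all libraries at 0 h (0.35 ± 0.09, limma adjusted p = 0.0048).

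**Figure D5:**
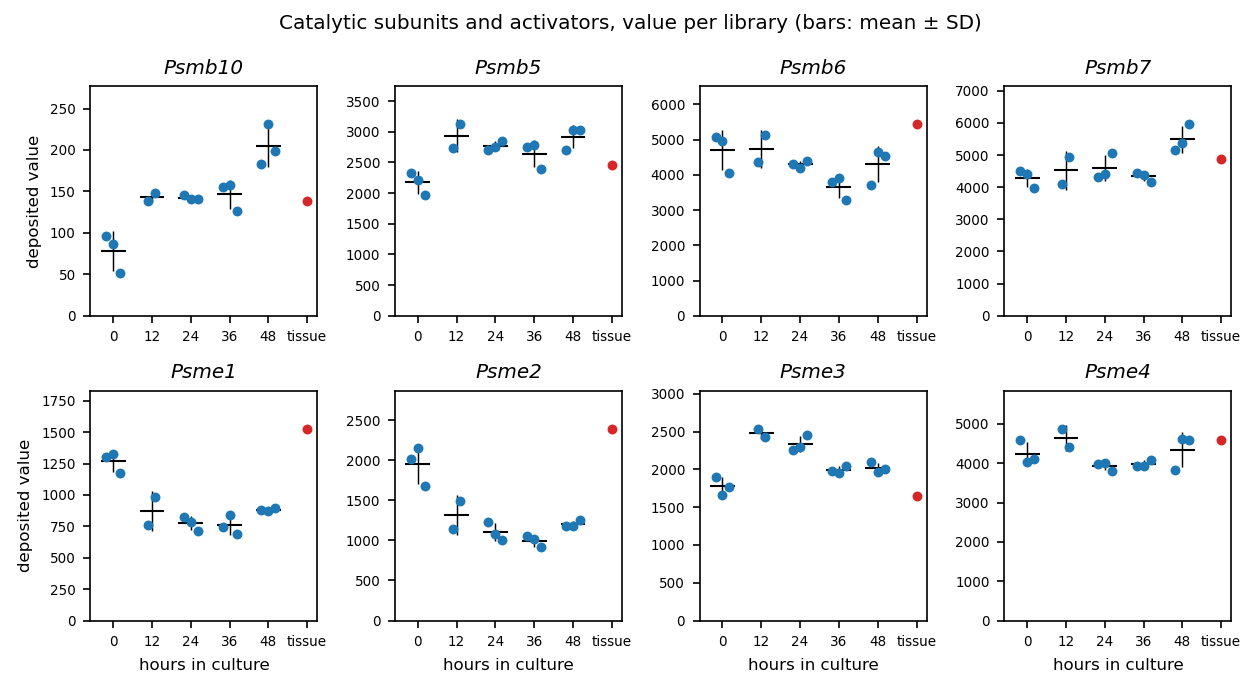
Deposited value (vertical axis, from 0) of the immune and constitutive catalytic subunits (upper row) and of the activators (lower row) in each library against hours in culture, with the mean and SD of each mDMC group and the tissue in red. Psmb10 was above its 0 h libraries at every time, while Psme1 and Psme2 were below theirs and the tissue was above.

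The subunits of the interferon-inducible activator, Psme1 and Psme2, fell while Psmb10 rose. They lie close together, with 6094 bases between the table's transcripts on chromosome 14 (chr14:55578123-55581346, plus strand, and chr14:55587441-55591087, minus strand). Psme1 read 1306, 1328 and 1171 at 0 h, 762 and 985 after 12 h, 825, 788 and 713 after 24 h, 743, 839 and 689 after 36 h, 879, 871 and 894 after 48 h, and 1524 in the tissue. Its log2 change was -0.55, -0.71, -0.75 and -0.52 ± 0.11 (limma adjusted p = 0.00075 at 48 h), with no overlap at any time. Psme2 read 2021, 2150 and 1677 at 0 h, 1145 and 1496 after 12 h, 1228, 1086 and 1003 after 24 h, 1050, 1018 and 914 after 36 h, 1174, 1179 and 1251 after 48 h, and 2388 in the tissue. Its log2 change was -0.57, -0.81, -0.97 and -0.69 ± 0.12 (limma adjusted p = 2e-04 at 48 h), again with no overlap. Without 12 h replicate 1, Psme2 was not called at 12 h (log2 change -0.37, adjusted p = 0.056). The endothelial and red cell markers also fell in these cultures, and the endothelial sum was, like both genes, highest in the tissue. The sum of the 5 leukocyte and macrophage markers was also highest in the tissue (1951, against 908 to 1270 at 0 h and 452 to 1212 in culture), and 3 of the 5 were called lower at 12, 24 and 36 h and 4 at 48 h, while Lyz2 was higher at 12 h and 36 h. The part of these markers in the falls of Psme1 and Psme2 was not tested.

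Psme3 encodes another, nuclear, activator. It read 1901, 1664 and 1766 at 0 h, 2533 and 2426 after 12 h, 2261, 2297 and 2455 after 24 h, 1984, 1953 and 2051 after 36 h, 2099, 1968 and 2003 after 48 h, and 1642 in the tissue. All cultured libraries were above those at 0 h, and the log2 change was largest after 12 h (0.48 ± 0.08, limma adjusted p = 0.00016) and smaller after 48 h (0.19 ± 0.07, adjusted p = 0.025), where 7 of 18 alternatives did not call it (adjusted p up to 0.109). Psme4 (the nuclear activator PA200) read 4583, 4029 and 4116 at 0 h and between 3811 and 4869 in culture. Psmf1, an inhibitor of the core, read 539, 582 and 644 at 0 h and between 505 and 712 in culture. Both overlapped 0 h at 48 h, and neither was called at any time (log2 change at 48 h 0.03 ± 0.08 and -0.04 ± 0.12).

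Of the 7 assembly factors, 1 was called higher at 12 h and 3 at each later time, 1 was lower from 24 h on, and 3 were called at no time. The 14.3% to 42.9% higher and 0% to 14.3% lower compare with 29.9% to 37.1% and 28.3% to 34% of all transcripts. Psmg3, a partner of Psmg4 in the chaperone pair that builds the alpha ring, read 179, 155 and 152 at 0 h, 350 and 437 after 12 h, 422, 442 and 418 after 24 h, 420, 418 and 465 after 36 h, 530, 376 and 410 after 48 h, and 152 in the tissue. The lowest cultured library was 1.96 times as high as the highest at 0 h. Its log2 change was 1.27 ± 0.15 after 12 h (limma adjusted p = 1.5e-05), 1.40 after 24 h and 1.42 after 36 h and 48 h. Psmg4, chosen after its values were seen, went down: 394, 433 and 417 at 0 h, 302 and 398 after 12 h, 271, 293 and 321 after 24 h, 198, 190 and 175 after 36 h, 175, 207 and 235 after 48 h, and 437 in the tissue. It overlapped 0 h at 12 h and lay below it from 24 h on (log2 change -0.49, -1.14 and -1.02 ± 0.14, limma adjusted p = 2.2e-05 at 48 h).

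Psmd5, a chaperone of the cap base, read 1632, 1528 and 1264 at 0 h, 1575 and 1901 after 12 h, 1777, 2008 and 1897 after 24 h, 2342, 2440 and 2430 after 36 h, and 3378, 2791 and 2958 after 48 h. Its log2 change went from 0.24 after 12 h (adjusted p = 0.11) through 0.37 and 0.71 to 1.05 ± 0.11 after 48 h (limma adjusted p = 1.9e-06), and each group from 24 h on was above the one at 0 h without overlap. Psmd10, another base chaperone, chosen after its values were seen, read 397, 362 and 241 at 0 h, 326 and 464 after 12 h, 447, 450 and 439 after 24 h, 572, 543 and 500 after 36 h, and 627, 603 and 574 after 48 h. Its log2 change was 0.25, 0.45, 0.72 and 0.88 ± 0.17, called from 24 h on. Psmd9, the remaining base chaperone, and Psmg1 and Psmg2, the other pair that builds the alpha ring, were called at no time, with log2 changes at 48 h between -0.14 and 0.16.

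Between successive times, few members differed. From 12 h to 24 h none of the 44 was called by limma, against 4.59% of all transcripts higher and 3.67% lower, and at an unadjusted p below 0.05, 3 were higher and 1 lower, which is below the 12.8% and 12% of all transcripts. From 24 h to 36 h, 8 were lower (18.2%, against 9.64% of transcripts) and 1 higher (2.27%, against 10%). The 8 were Psma7 of the core (log2 change -0.49), the cap genes Psmc4 (-0.43), Psmd1 (-0.36), Psmd3 (-0.33), Psmd4 (-0.25) and Psmd12 (-0.48), Psme3 (-0.23) and Psmg4 (-0.65). The gene that rose was Psmd5 (0.35). Of the 31 core and cap genes, 28 had negative estimates in this interval, with a median of -0.24, against 52.7% of all transcripts and a median of -0.02. In this interval the count rested on single libraries: between 1 and 2 members were lower, and none higher, without 24 h replicate 2, 24 h replicate 3 or any 1 library at 36 h, and none was higher without 24 h replicate 1. With the replicate number as a block, 9 were lower, among them 3 core genes. From 36 h to 48 h none was called, 0% and 0.0248% of all transcripts were called higher and lower, and at an unadjusted p below 0.05, 13 of 44 members were higher and none lower, against 6.4% and 6.99% of all transcripts. Without 48 h replicate 1, 2 members were higher in that interval, and without the 3 low libraries 13 were higher, while 21 were then lower from 24 h to 36 h.

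In the tissue library, 19 of the 44 members were above all 3 libraries at 0 h, a larger share than the 29.7% of all transcripts, 3 were below all (against 32%) and 22 lay within their range. No member differed more than 2-fold from the 0 h mean, which is near the 3.78% of all transcripts that did. The differences ran from -0.22 (Psmd5, 1257) to 0.88 (Psmb10, 139) on the log2 scale, with a median of 0.09. Of the core genes 9 of 14 were above, among them Psmb5, Psmb6 and Psmb7, and of the cap genes 4 of 17, Psmc3, Psmc6, Psmd8 and Psmd13. Psmd3 and Psme3 were, besides Psmd5, the members below. With 1 library, no test could be made.

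Genes that work with the proteasome but carry other names were counted in the same way. Of 9 partners with values, 2 were higher after 12 h, 6 after 24 h, 5 after 36 h and 7 after 48 h, and none was lower. The share called higher was below that of all transcripts at 12 h (22.2%, against 29.9%) and above it at 24 h (66.7%, against 35%), 36 h (55.6%, against 36%) and 48 h (77.8%, against 37.1%), while 28.3% to 34% of all transcripts were lower. Usp14, the deubiquitinase bound to the cap, read 1729, 1677 and 1413 at 0 h and 2886, 3674 and 3840 at 48 h (log2 change 1.10, limma adjusted p = 2.9e-06). Ube3c, a ligase that acts on stalled substrates, changed by 0.63 and Txnl1, a redox protein of the cap, by 0.47 at 48 h. Of 6 shuttle factors that bring ubiquitin-bound proteins to the cap, 3 were higher at each time, and 1 was lower at 36 h and 48 h. With 6 genes, the 50% called higher is about 1 gene more than the 29.9% to 37.1% of all transcripts would give, and the 16.7% called lower is below the 34% of all transcripts. Rad23b read 7922, 7922 and 6497 at 0 h and 19258, 16538 and 17398 at 48 h, when its log2 change was 1.25 and that of Ubqln2 -1.16.

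Of 10 genes for transcription factors of the proteasome and their processing, 1 was higher at each time and 3 or 4 were lower. The 10% called higher is below the 29.9% to 37.1% of all transcripts, and the 30% to 40% called lower is near their 28.3% to 34%. The gene that rose was Nfe2l2, with 532, 563 and 628 at 0 h, 1100, 1326 and 1537 after 48 h and 961 in the tissue (log2 change 1.05 after 12 h and 1.19 after 48 h, limma adjusted p = 4.8e-06). Nfe2l1, the factor of the response to proteasome inhibition, read 4894, 4995 and 4219 at 0 h and 4462, 3884 and 3772 at 48 h (log2 change -0.22, adjusted p = 0.075). Vcp, the ATPase that extracts it from the membrane, fell by 0.80 on the log2 scale at 48 h, and Nfya fell by 0.68. In the list of genes for ubiquitin and its activation, Uba6, an activating enzyme, had a log2 change of 1.03 at 48 h, and Ubb, a ubiquitin gene, one of -0.88, and both were called.

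Of 12 genes of antigen processing and the interferon response that were tested, 4 were higher after 12 h, 5 after 24 h, 6 after 36 h and 6 after 48 h, and 5, 5, 3 and 3 were lower. These shares, 33.3% to 50% higher and 25% to 41.7% lower, are near those of all transcripts (29.9% to 37.1% and 28.3% to 34%). Tap1, the peptide transporter that shares this pathway with Psmb10, read 171, 352 and 320 at 0 h, 35 and 48 after 12 h, 278, 327 and 352 after 24 h, 925, 936 and 674 after 36 h, and 1155, 865 and 819 after 48 h. It was thus below 0 h at 12 h (log2 change -2.68, limma adjusted p = 4.8e-06), a time at which Psmb10 was above it, and higher at 48 h (1.80, adjusted p = 3e-05). Gbp2 rose by 3.61 and B2m by 2.12 at 48 h, and Irf1 fell by 3.12. In 48 h replicate 1, Stat2 (1031) and Isg15 (180, which did not pass the filter) were above all other libraries. That library was among those with low core and cap genes, and it held 3.56 units of Psmb10 per 100 of Psmb7, against 4.30 and 3.34 in the other replicates at 48 h. Stat2 and Isg15 were chosen after their values were seen.

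Psmc3ip, which only shares the name pattern, read 329, 311 and 259 at 0 h, 367 and 479 after 12 h, 376, 402 and 382 after 24 h, 278, 277 and 270 after 36 h, and 254, 256 and 224 after 48 h. It was higher after 12 h (log2 change 0.49) and 24 h (0.37), lower after 36 h than after 24 h (-0.49), and not called after 48 h against 0 h (-0.29 ± 0.12, limma adjusted p = 0.052).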

How the data were processed

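RNA-seq of 14 mDMC libraries and 1 tissue library was used. Per the labels and the methods, the authors made TruSeq libraries from total RNA, used bowtie to place reads on Ensembl transcripts of mm10 and RSEM to quantify them (RSEM 1.1.21 in the submitters' processing notes). The deposited table holds whole-number scores per transcript that the authors normalized to 1 distribution, so they were not treated as read counts. Depth is unknown, and no counting interval was given. Gene names, coordinates and promoters come from GRCm38 annotation and RefSeq.

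Scores were tested with limma 3.58.1 (R 4.3.3) on log2(value + 1), a scale that understates changes of low genes. The fit used the 14 mDMC libraries, 1 mean per time point, no block and an intensity trend, over the 12079 transcripts that reached 1 ppm of the summed scores in 2 or more libraries. P-values were Benjamini-Hochberg adjusted over all of them, and a call needed an adjusted p below 0.05. Errors after ± on log2 changes are SE. The script was tested on simulated data. The ratio of Psmb10 to Psmb7 was compared by an exact two-sided permutation test (scipy 1.17.1). Groups came from the labels.

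Genes given in full were the catalytic and immune core subunits, the activators, the inhibitor and, in each other role group, the 2 members with the largest absolute log2 change at 48 h. Of other lists, up to 3 genes with the largest change were named, plus Nfe2l1 and Tap1, and some of these genes are not reported here. Other genes serve a count, carry a motif or a quality note, or were singled out after their values were seen. The members, gene lists and tests were chosen with earlier results of these data known. Samples with the same replicate number deviated together in every pair between 24 h and 36 h (r 0.126 to 0.165) and between 24 h and 48 h (0.201 to 0.315), from the data only, since the labels name no shared litter or day. The largest r was between different numbers, 0.475 for 0 h replicate 3 and 12 h replicate 1. Between 0 h and 12 h, r was 0.319 for replicate 2 and -0.245 for replicate 1. Alternatives were 3 other scalings, 2 other pseudocounts, 2 other filters, no trend, the compared times only, the threshold of the study, the replicate block and leaving out each library.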

Additional observations from a re-analysis of the deposited data

How the results depend on the processing

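The number of libraries and their spread set the limits here, since depth is unknown. The cause of the changes below was not tested, except that fewer samples or a stricter threshold apply by construction. Counts under the alternatives, here and above, stand without the share of all transcripts called under the same alternative. A shift of these genes can therefore not be told apart from a shift in the overall call rate. Rescaling moved no library by more than 0.05 on the log2 scale, which largely follows from values already brought to a common distribution. The other scalings therefore do not test the normalization of the authors.

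With the compared time points only, 11 members were higher at 12 h against 21, and from 24 h to 36 h 2 were higher and 18 lower, while 8 cap genes and 1 core gene were higher at 12 h and 9 cap and 7 core genes lower from 24 h to 36 h. At the threshold of the study (unadjusted p below 0.05 and more than 2-fold), 1 member was higher at 12, 24 and 36 h and 4 at 48 h, 1 was lower at 36 h and 48 h and 0 at 12 h and 24 h, 0 were called from 24 h to 36 h, and of the cap 0, 0, 0 and 1 and of the core 0 at each time were higher, with 0 core genes lower at 36 h. Median-ratio scaling gave 5 members lower at 48 h, and 1, 1 and 2 core genes lower at 12, 24 and 48 h and 2 from 24 h to 36 h. Trimmed-mean scaling gave 1 core gene lower at 24 h and 1 at 48 h. Without the intensity trend, 0 members were higher and 5 lower from 24 h to 36 h, 3 of them cap genes, and 2 core genes were higher at 12 h. The numbers paired 24 h with 36 h and 48 h in the data only. With the replicate block, 2 core genes were higher at 12 h against 4, and 3 were lower from 24 h to 36 h against 1, while every other count stayed within 1.5 times of its value without the block, and the call of Psmb3 at 48 h was gained.

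The 3 low libraries were chosen after seeing the data, by the low values of core and cap genes, so leaving them out is no independent check. Without them, 7 members were lower at 24 h and 5 at 48 h. From 24 h to 36 h, 2 were higher and 21 lower, and 13 were higher from 36 h to 48 h. Of the cap 11 were lower from 24 h to 36 h. Of the core 7 were higher and 1 lower at 12 h, 4 lower at 24 h, 2 lower at 48 h and 8 lower from 24 h to 36 h.

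Leaving out 1 library at a time gave 8 to 22 members higher and 1 to 5 lower at 12 h, 8 to 15 higher and 5 to 10 lower at 36 h, 3 to 5 lower at 48 h, 0 to 1 higher from 12 h to 24 h, 0 higher and 1 to 8 lower from 24 h to 36 h and 0 to 2 higher from 36 h to 48 h. For the cap it gave 4 to 14 higher at 12 h and 0 to 5 lower from 24 h to 36 h. For the core it gave 1 to 5, 2 to 5 and 0 to 4 higher at 12, 24 and 36 h, 0 to 1, 0 to 1, 2 to 6 and 0 to 2 lower at 12, 24, 36 and 48 h, and 0 to 1 lower from 24 h to 36 h. The ratio of Psmb10 to Psmb7 differed by 0.70 to 1.06 without 1 library (exact permutation p up to 0.0256) and by 1.07 at 48 h only (exact permutation p = 0.1). The sign of Psme4 at 48 h, called under no setting, turned under median-ratio (-0.0023) and trimmed-mean scaling (-0.0018) and without 0 h replicate 2, 48 h replicate 2 or 48 h replicate 3 (-0.0036, -0.014 and -0.0083), and its values without 1 library ran from -0.014 to 0.12. That of Psmf1 turned without 0 h replicate 3 or 48 h replicate 3 (0.031 and 0.031), with values from -0.10 to 0.031 without 1 library.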
